A study of Mus musculus with 3 samples.

Results

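Sites for the miR-25/32/92 family of miRNAs were described in the 3′UTRs of N2A cells, a mouse neuroblastoma line, from the Argonaute 2 (Ago2) HITS‐clip peaks of 3 libraries. The sites were chosen by measured values: a site was a match to positions 2 to 8 of miR-92a-3p lying whole inside a 3′UTR stretch of at least 8 nt that peaks of at least 2 of the 3 libraries covered on the same strand. A total of 302 of the 1521 matches in the 3′UTRs of 21671 protein-coding genes met this rule. They lay in 297 of the 30379 stretches covered in at least 2 libraries, and in 285 of the 1380 genes with a match. Another 35 matches in the same 3′UTRs lay outside such stretches and served as the comparison.

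In HITS‐clip, ultraviolet light crosslinks a protein to the RNA it touches, the protein is immunoprecipitated, and the attached RNA is sequenced. The 3 libraries formed 1 group of untreated N2A cells, immunoprecipitated with the anti-Ago2 clone 2D4. Nothing in the labels said whether they came from separate cultures, so p-values measure only the spread between these libraries, which may be technical. The deposited table held 711377, 498071 and 829936 peaks for replicates 1, 2 and 3. It gives intervals and no counts, so how deeply each library was sequenced could not be taken from it. Every library had a peak in the 3′UTR for 7 of 16 listed neuronal or neuroblastoma markers and for 3 of 14 markers of other cell types, but peaks are no measure of expression.

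The family consists of miRNAs that share a seed, the bases next to the 5′ end through which a miRNA loaded into Ago2 recognises its targets. Pairing of the seed to a 3′UTR usually lowers the stability and the translation of the mRNA. Some members, among them miR-92a, miR-25 and miR-363, are encoded in the miR-17 to miR-92 cluster and its relatives, which promote proliferation and restrain apoptosis, and others lie elsewhere, and the family is known for its high expression in dividing and embryonic cells and in neuroblastoma. Published targets include integrins, inhibitors of proliferation of the BTG/TOB family, and components of BMP and TGF-beta signalling.

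The mature sequences from RefSeq (GRCm38.p6) are shown because their common seed defined the sites. Positions 2 to 8, in capitals, were identical in all 6, while the first base and the 3′ part differed.
miR-25-3p: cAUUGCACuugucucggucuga
miR-32-5p: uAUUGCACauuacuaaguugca
miR-92a-3p: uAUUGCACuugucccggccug
miR-92b-3p: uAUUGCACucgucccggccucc
miR-363-3p: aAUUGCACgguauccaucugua
miR-367-3p: aAUUGCACuuuagcaaugguga

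Because the seed is shared, a peak over a match did not tell which family member, if any, was bound there. The match in the mRNA reads GTGCAAT, and a match followed by A is called an 8mer below, any other a 7mer. The following windows of 30 nt (GRCm38, transcript strand, 5′ to 3′) show sites on which the results turn, with the 7mer or 8mer in capitals. The first 8 held an 8mer in a short stretch covered in all 3 libraries.
Clcn4 (chr7:7283233-7283262, minus strand): gtttctaagtagcatGTGCAATActtaaaa
Mmd (chr11:90277213-90277242, plus strand): aggttgtcaaagtcaGTGCAATAgtaatac
Rnf4 (chr5:34351987-34352016, plus strand): cctaagaatgagaaaGTGCAATAaaacccg
Pik3cb (chr9:99038619-99038648, minus strand): gagtggtgttagcatGTGCAATAggaacta
Ptger4 (chr15:5234588-5234617, minus strand): atcttataaaatcctGTGCAATAgacatac
Mef2d (chr3:88169398-88169427, plus strand): cctttgagatgtacaGTGCAATAgctcccc
Dkk3 (chr7:112118167-112118196, minus strand): gagtcactggtagatGTGCAATAgaaatgg
Klf2 (chr8:72321118-72321147, plus strand): aatgttttcaaaatgGTGCAATAattgact

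The next windows come from reported targets of the family and from genes with several covered matches. Where a gene has several covered matches, the distance from the first base of the stop codon is given.
Btg2, at 1041 nt (chr1:134076316-134076345, minus strand): gcgttctcagtcactGTGCAATAgtcccag
Btg2, at 1342 nt (chr1:134076015-134076044, minus strand): tttatttgtagatgtGTGCAATAtttactg
Tob1 (chr11:94215369-94215398, plus strand): ttttgtacctatattGTGCAATActtgaaa
Cpeb2, at 2947 nt (chr5:43288876-43288905, plus strand): attctgtgttgtgatGTGCAATActgtttc
Cpeb3 (chr19:37021900-37021929, minus strand): actctttgttgttatGTGCAATActgtttg
Itga5 (chr15:103344308-103344337, minus strand): taaactctgttgcaaGTGCAATAaacccca
Itgav, at 1431 nt (chr2:83804749-83804778, plus strand): tatagctctatttttGTGCAATtacatcat
Itgav, at 3082 nt (chr2:83806400-83806429, plus strand): tgtcattgttcttaaGTGCAATAtaacaat
Bmpr2 (chr1:59870965-59870994, plus strand): gtattttatttgaatGTGCAATAgtctata
Man2a1, at 53 nt (chr17:64752608-64752637, plus strand): cgtccttggtttaacGTGCAATAactaagc
Man2a1, at 498 nt (chr17:64753053-64753082, plus strand): aaataatgtggaaaaGTGCAATccctcaac
Man2a1, at 666 nt (chr17:64753221-64753250, plus strand): gacaacatgggatggGTGCAATttattcca

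The windows of Cpeb2 and Cpeb3, paralogous RNA-binding proteins, were alike beyond the match, with 26 of 30 bases the same. The highest number for any other pair among the 45 windows compared was 22.

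The libraries contributed unequally to the sites. Peaks of replicates 2 and 3 but not 1 covered 192 of the 302 matches, peaks of all 3 libraries covered 65, those of replicates 1 and 2 only 31, and those of replicates 1 and 3 only 14. Replicate 1 covered fewer 3′UTR windows than the other libraries, with 6.35% of all 7-nt windows under a peak against 17% and 16.8% in replicates 2 and 3. As for the limits of the rule, 237 matches lay under peaks of exactly 2 libraries and 305, which were left out, under a peak of 1 library. No match lay in a stretch shorter than 8 nt, and 16 were left out because only part of them was inside a stretch.

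The stretches ranged from 14 to 1736 nt, with a median of 112 nt. The shortest were in Dpy30 (14 nt), Slc47a1 (17 nt), Lcor (20 nt), Tmem245 (21 nt) and Sfmbt2 (28 nt). For 238 matches a peak of at most 200 nt was present in every covering library, and for 16 the narrowest peak of a covering library was over 1000 nt. Coverage of the surrounding 3′UTR varied widely: a median of 36.3% of a 3′UTR with a site was covered in at least 2 libraries, and in 84 of the 285 genes this share was over 50%.

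Matches of the family were under a peak more often than other sequence of the same 3′UTRs in every library. In replicate 1, 146 of 1521 matches were covered (9.6%, 95% Wilson interval 8.22 to 11.2%), against 6.79% of the other 7-nt windows. The shares were 29.7% (27.5 to 32.1%) against 19.8% in replicate 2 and 24.7% (22.6 to 27%) against 18% in replicate 3. These intervals cover counting error only. The log2 ratio of the shares was 0.51 ± 0.07 (SD, n = 3; exact sign-flip permutation test over libraries, two-sided, p = 0.25, the smallest p that 3 libraries allow). Of all matches 19.9% were sites, whereas 11.3% of all windows of these 3′UTRs lay in a stretch covered in at least 2 libraries. With peaks of the opposite strand these shares were 0.46% (7 matches) and 0.482%. Coverage by peaks also chose the sites, so these comparisons are descriptions.

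The pooled windows give long 3′UTRs more weight than the matches do. When the number of covered matches was instead set against the covered share of each match's own 3′UTR, a comparison chosen after seeing the data, 146 were covered where that share gave 111 in replicate 1, 452 against 326 in replicate 2 and 376 against 294 in replicate 3. The log2 ratio was then 0.41 ± 0.06 (SD, n = 3; exact sign-flip permutation test, p = 0.25). For stretches covered in at least 2 libraries the count was 302 against 192, and for those in all 3 libraries 65 against 34. The background share for all 3 libraries was 1.97% of windows, against 4.27% of matches.

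Matches followed by A were covered more often than the others. In replicate 1, 12.7% of 498 8mers and 8.11% of 1023 7mers were under a peak. In replicate 2 these shares were 39.2% and 25.1%, and in replicate 3 they were 30.9% and 21.7%. The difference was 9.26 ± 4.75 percentage points (SD, n = 3) and was above 0 in 3 of 3 libraries (exact sign-flip permutation test, two-sided, p = 0.25). The base after the match had no part in choosing the sites.

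Differences for a following A were also computed for other sequence. Among all windows of the same 3′UTRs, those followed by A were covered more often by 0.461, 0.184 and 0.685 percentage points in replicates 1, 2 and 3. For the 21 heptamers that differ from the match by 1 base, the median difference was 1.07, 2.2 and 2.27 points. Their highest difference was 4.7, 7.76 and 8.92 points, against 4.54, 14 and 9.22 for the match. None of the 21 exceeded the match in replicates 2 and 3, and 1 did so in replicate 1, so differences of about the size of that of the match occurred among them in replicates 1 and 3.

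Shorter matches were covered less often than the 8mer. Sites pairing to positions 2 to 7 and followed by A (7mer-A1, n = 1635) were covered at 8.38%, 21.9% and 21.3% in replicates 1, 2 and 3. Sites with these 6 pairs alone (n = 4184) were covered at 6.76%, 18.2% and 18%, close to the 6.35%, 17% and 16.8% of 7-nt windows of all 3′UTRs. These sites had to be covered over 6 nt and the windows over 7 nt. The share of 8mers also differed by the number of covering libraries: it was 28.1% among matches under no peak, 34.8% under peaks of 1 library, 41.8% of 2 and 55.4% (36 of 65) of 3.

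**Figure D1:**
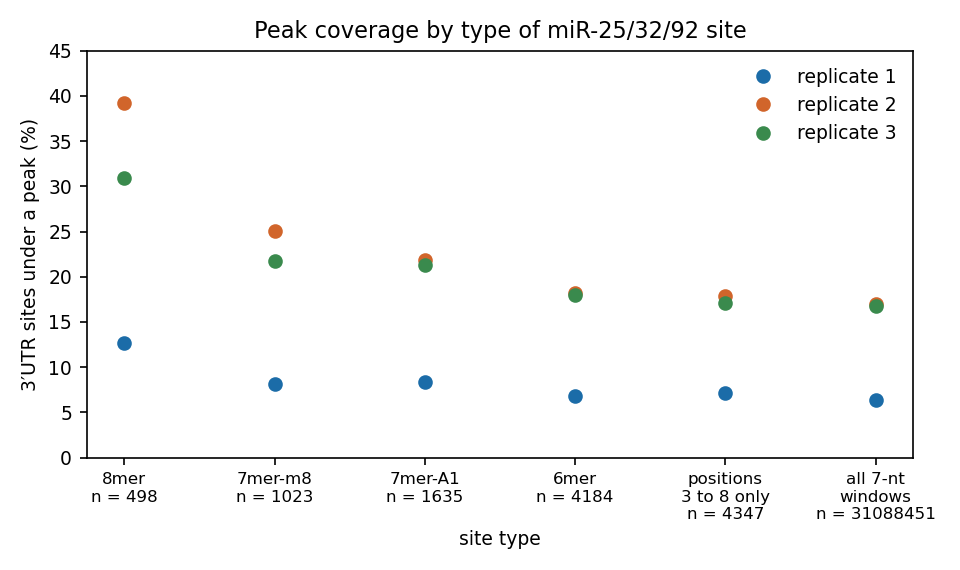
Share of 3′UTR sites under a peak (y axis, %) by type of site (x axis), with 1 point per library and the number of sites under each type. The 8mers stand highest in each library, at 12.7%, 39.2% and 30.9%. Sites with 6 pairs, counted as covered over 6 nt, lie close to the 7-nt windows of all 3′UTRs.

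Among the windows along miR-92a-3p, the ratios were highest at the seed end. Matches to positions 1 to 7 had log2 ratios of 0.49, 0.43 and 0.41 in replicates 1 to 3, and those to positions 2 to 8 had 0.50, 0.58 and 0.45. From positions 3 to 9 onwards the means over libraries lay between -0.38 and 0.09. Of the 2133 matches to the first window, 498 were also matches to the second, since both lie inside the 8mer. The 21 heptamers 1 base away from the match had means from -0.20 to 0.36 (median 0.05), below the 0.51 of the match. Set against each 3′UTR's own covered share, their highest mean was 0.39, that of ATGCAAT, close to the 0.41 of the match.

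**Figure D2:**
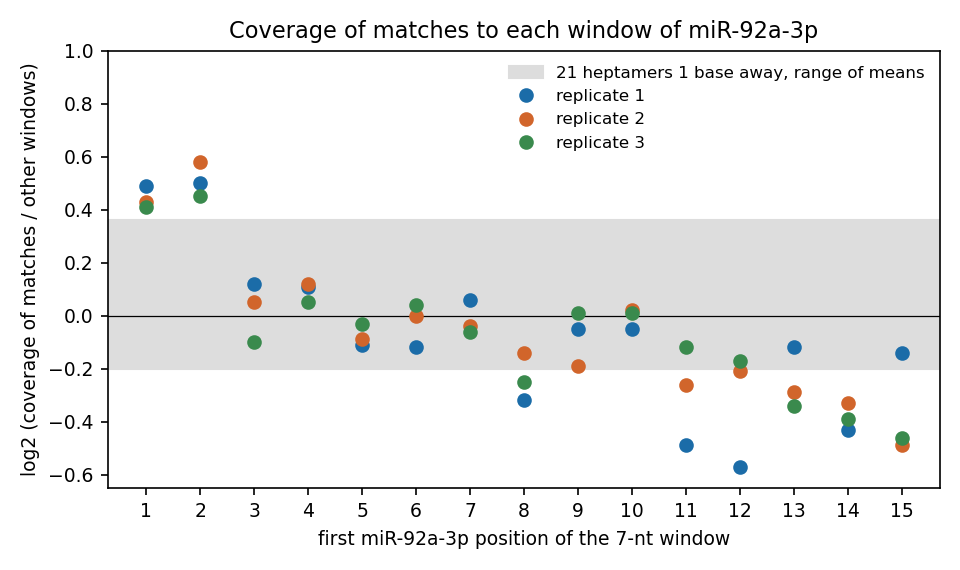
Log2 ratio of the coverage of matches to that of other windows of the same 3′UTRs (y axis) for each 7-nt window of miR-92a-3p, by its first position (x axis), with 1 point per library. The grey band spans the means of the 21 heptamers 1 base away, and only the windows starting at positions 1 and 2 lie above it in all libraries.

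Among all heptamers with at least 1000 occurrences in 3′UTRs, 10703 in number, the match had the highest share in stretches covered in at least 2 libraries, 19.9%, where the median heptamer had 9.3%. The next were TGTAAAT (19.6%), which lies within the element bound by Pumilio proteins, and GCACTTT (19.3%), the match to positions 2 to 8 of miR-17-5p. Coverage in at least 2 libraries also chose the sites, so the first rank is a description. By single library the match ranked 45, 2 and 28 in replicates 1, 2 and 3. Set against the covered share of each 3′UTR it ranked 2 with a ratio of 1.58, behind GTAAATA, which also had 1.58. With heptamers down to 100 occurrences included it ranked 9 of 15981 by the plain share and 19 against the covered share of each 3′UTR, where the first, CGATATC, had a ratio of 2.27.

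Matches were concentrated near the midpoints of peaks. For 3′UTR peaks of 86 to 200 nt (10331, 43314 and 43254 in replicates 1, 2 and 3), there were 12.1, 13.2 and 8.58 matches per 100000 windows within 20 nt of the midpoint. At 100 to 200 nt from it there were 6.67, 6.51 and 6.14. The log2 ratio of these densities was 0.86, 1.02 and 0.48, a mean of 0.79 ± 0.28 (SD, n = 3; exact sign-flip permutation test, p = 0.25). It was 1.22, 1.28 and 0.71 for 8mers, 0.50, 0.80 and 0.32 for 7mers, and 0.09, 0.21 and 0.14 for the 21 heptamers 1 base away as a pool. Within 39 nt of the midpoint the median distance of a match was 17, 12 and 17 nt, against 20 nt for any window in each library.

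**Figure D3:**
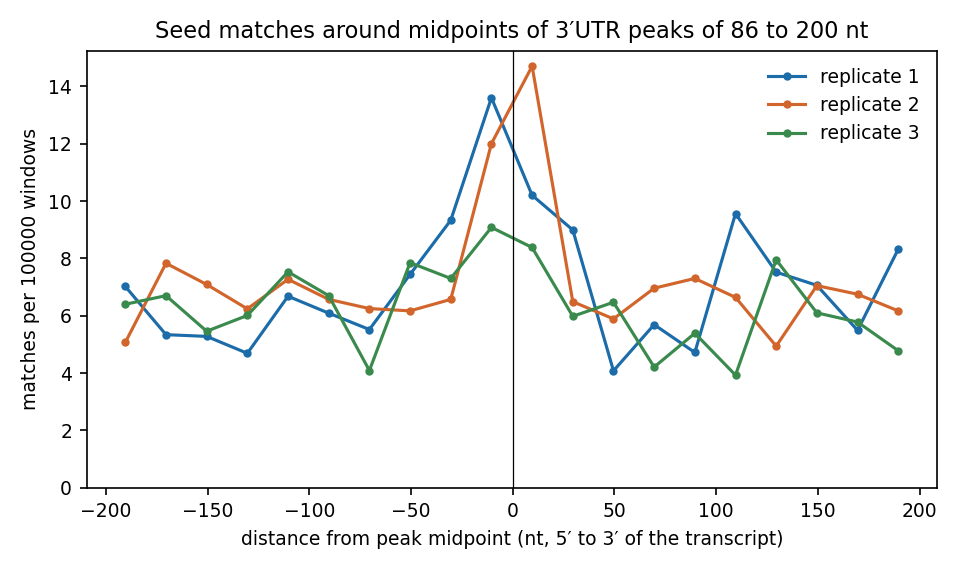
Matches per 100000 windows (y axis) by distance from the midpoint of 3′UTR peaks of 86 to 200 nt (x axis, nt in bins of 20 nt, positive towards the 3′ end of the transcript), with 1 line per library. All libraries have their highest value in 1 of the 2 bins next to the midpoint, and replicate 3 has the lowest of these maxima.

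Each library was next held out and compared with stretches covered in the other 2, so that the library compared had no part in choosing them. Whether a stretch held a match made no difference of stable direction to its recurrence. With replicate 1 held out, 97 of 253 stretches with a match (38.3%) and 535 of 1733 without in the same 3′UTRs (30.9%) had a peak in it. With replicate 2 these were 69 of 78 (88.5%) and 268 of 313 (85.6%), and with replicate 3 they were 75 of 95 (78.9%) and 275 of 323 (85.1%). The difference was 1.37 ± 6.95 percentage points (SD, n = 3; exact sign-flip permutation test, two-sided, p = 0.75). Stretches with a match were longer, with medians of 109, 102 and 99 nt against 90, 88 and 87 nt. Within the same classes of length the difference was -2.45 ± 6.49 points (exact sign-flip permutation test, p = 1).

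The match itself recurred at shares close to those of any covered window. Of matches covered in both other libraries, 25.3% (65 of 257), 82.3% (65 of 79) and 67.7% (65 of 96) were under a peak of held-out replicates 1, 2 and 3. Of other matches in the same 3′UTRs, 1 of 29, 4 of 10 and 5 of 16 were. The difference was 33.5 ± 10.5 percentage points (SD, n = 3; exact sign-flip permutation test, p = 0.25). All windows covered in both other libraries recurred at 23.7%, 79.5% and 72.8%, and other windows of the same 3′UTRs were covered at 8.85%, 48.1% and 44.3%. The difference between a covered match and any covered window was -0.233 ± 4.26 percentage points (SD, n = 3; exact sign-flip permutation test, two-sided, p = 1), with 2 of 3 libraries above 0.

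**Figure D4:**
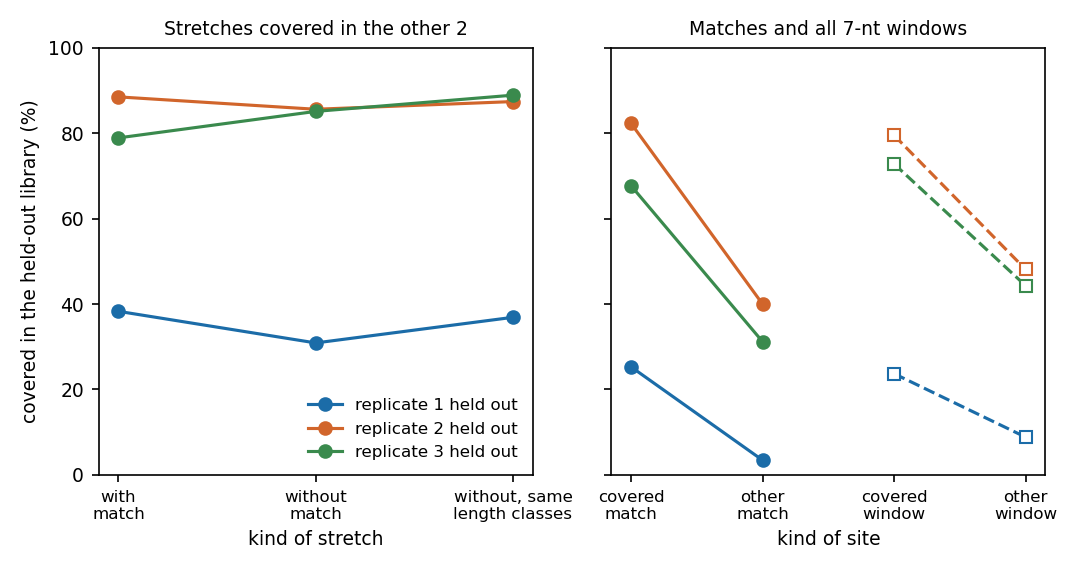
Share covered in the held-out library (y axis, %), with 1 colour per held-out library; lines join values of 1 library. The left panel has stretches covered in the other 2 libraries, with and without a match, and the right panel has matches (filled) and all windows (open) covered or not covered in the other 2. Covered matches and covered windows lie close together in each library.

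The surroundings of the sites were rich in A and U. In the 30 nt on each side of the match, 63.2% ± 10.3 of bases (SD over 302 sites) were A or U, against 59.4% ± 9.46 at the 35 other matches of the same 3′UTRs, a difference of 3.83 percentage points. In the 32 3′UTRs with both kinds, the site had the higher content in 20. Any window inside covered stretches of these 3′UTRs also exceeded windows outside them, by 5.6 points (61.9% against 56.3%), so the difference was not particular to the matches. The share of 8mers was 44.7% among sites and 31.4% (11 of 35) among the other matches.

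The median distance to the nearer end of the 3′UTR was 426 nt for sites and 982 nt for the other matches of the same 3′UTRs. In 3′UTRs without a stretch covered in at least 2 libraries the median for matches was 435 nt, close to that of sites. Of these matches 40%, and of sites 40.4%, were within 300 nt of an end. For the 504 matches in 3′UTRs with such stretches but no site, the median was 561 nt and the share 30.2%. Moreover, 3′UTRs with a site and another match were long, and within them the site was the nearer one in 19 of 32. Only 1 site lay within 15 nt of the stop codon, that of Mcl1, an anti-apoptotic BCL2 protein, at 11 nt after the first base of the stop codon.

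Complementarity to the 3′ part of the miRNA differed little. A match to positions 13 to 16 within the 15 nt before the site was found for miR-32-5p at 5.3% of sites and 3.9% of the 539 matches outside stretches in 3′UTRs with a stretch. For miR-363-3p it was found at 5.96% and 5.57%, and for miR-92a-3p at 2 sites and 6 of the other matches.

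Of the 297 stretches, 68 (22.9%) also held a match to the seed of at least 1 of 14 other miRNAs, against 16.5% of the other stretches in the same 3′UTRs. The stretches with a site were longer, and per 1000 nt the order turned. Over the 14 miRNAs there were 1.72 matches per 1000 nt in stretches with a site and 1.91 in the other stretches, and the density was lower in stretches with a site for 11 miRNAs and higher for 3. Matches of miR-181a-5p, a miRNA of neurons and lymphocytes, occurred at 0.289 per 1000 nt in stretches with a site and 0.198 in the other stretches. Those of miR-15a-5p, a repressor of cyclins and Bcl2, occurred at 0.221 and 0.26, and those of miR-17-5p, a cluster partner of miR-92a, at 0.051 (3 matches) and 0.152. These 3 rest on 3 to 17 matches in stretches with a site, and no density was tested.

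Peaks on the hairpins of the family did not include both loci of miR-92a. An arm was counted as having a peak when the peak, trimmed by 30 nt on each side, overlapped it by at least 15 nt. The miRNA arms of Mir25, Mir32, Mir92b and Mir363 each had a peak in 3 of 3 libraries. The arm of Mir92-1 had none, although 2 peaks of replicate 3 overlapped its hairpin, and Mir92-2 and Mir367 had none in any library. Mature miR-92a-3p is identical at both of its loci, and how reads that map to several places were treated is not given in the sources used here. Absence of a peak thus does not show absence of the miRNA.

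Of 27 genes reported as targets of the family, 23 had a match and 13 held a site: Bmpr2, Btg2, Cpeb2, Cpeb3, Dkk3, Fbxw7, Hand2, Itga5, Itgav, Klf2, Nfix, Smad7 and Tob1. Of all genes with a match 20.7% held a site, and of the 752 that also had a stretch covered in at least 2 libraries 37.9% did. Of the 23 reported targets, 20 had such a stretch. The list was drawn up with results of these data known, so its share is a description. Whether a gene without peaks was expressed could not be told from these data.

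Btg2 and Tob1, inhibitors of proliferation that recruit the CCR4-NOT deadenylase, held 8mers. In Btg2 the match 1041 nt after the start of the stop codon was under a peak of replicate 2 and a peak of replicate 3, and the one at 1342 nt was under peaks of all 3 libraries (111, 168 and 115 nt wide). In Tob1 the match was covered in replicates 1 and 3 and not in 2. Tob2, its paralogue, held an 8mer covered in replicates 2 and 3. All 6 genes with a match in the list of CPEB, BTG/TOB and CCR4-NOT genes held a site. All 6 had a stretch covered in at least 2 libraries, where the share over all genes was 37.9%. In at least 2 libraries 88.3% of the Tob1 3′UTR was covered, 85.2% of that of Cpeb4 and 83.2% of that of Cpeb2. This coverage was 68.6% for Btg2, 54.3% for Tob2 and 6.1% for Cpeb3, with a median of 36.3% over 3′UTRs with a site. The gene lists were drawn up with results of these data known, so their shares are descriptions.

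The CPEB proteins bind 3′UTRs and control polyadenylation and translation. The Cpeb2 8mer at 2947 nt and its 7mer at 1030 nt were both covered in all 3 libraries, in a 3′UTR of which 83.2% was covered in at least 2. The Cpeb3 8mer at 2948 nt, by contrast, lay in a 3′UTR of which 6.1% was covered, under peaks of 96 and 89 nt in replicates 2 and 3. Its other match, a 7mer at 1182 nt, was under no peak. The Cpeb4 8mer at 3326 nt was covered in all 3 libraries, inside the longest of the stretches, 1736 nt.

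**Figure D5:**
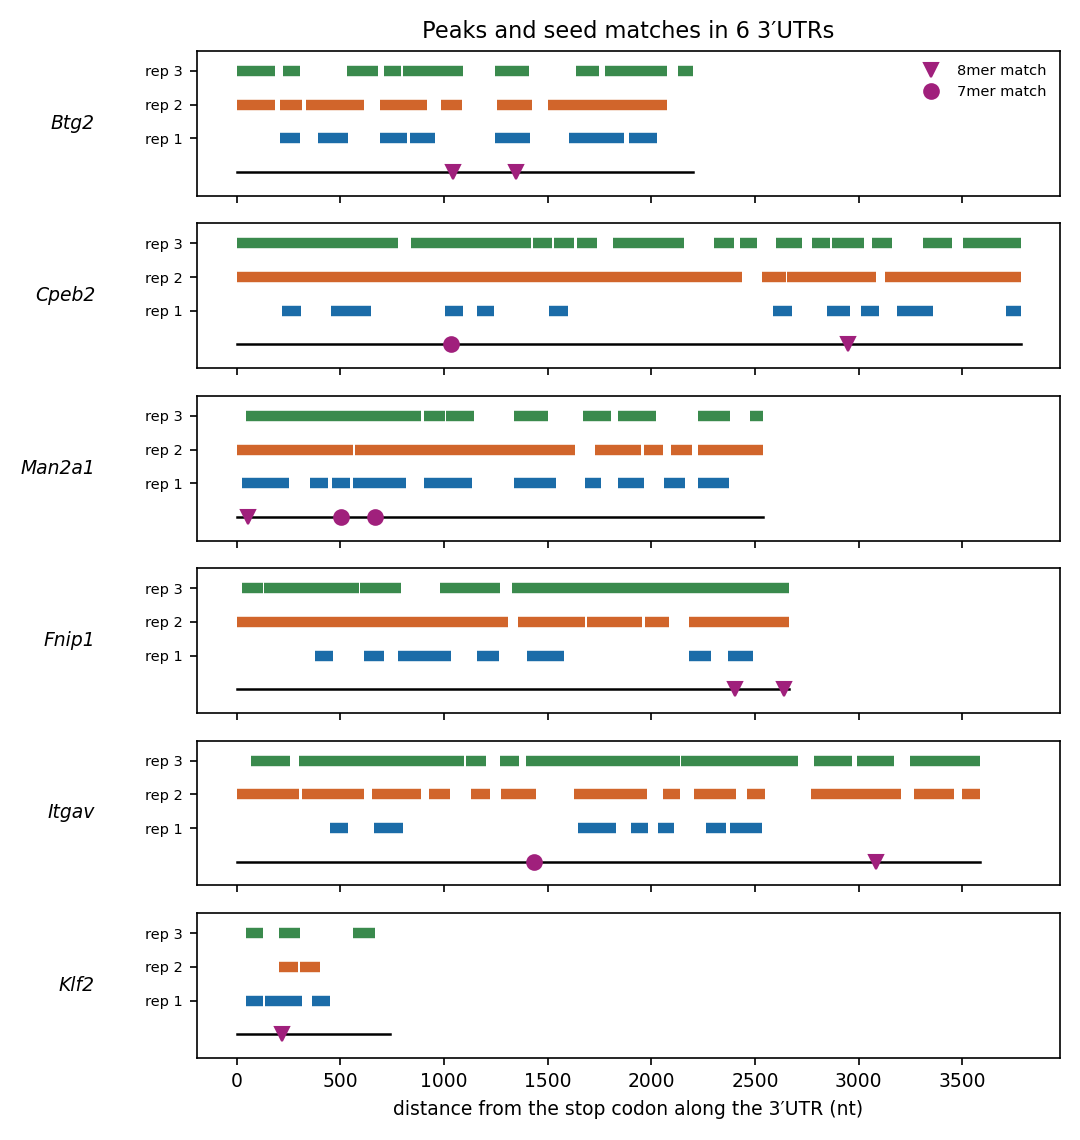
Peaks of each library (coloured bars) and matches (triangles, 8mer; circles, 7mer) along the 3′UTRs of 6 genes, by distance from the first base of the stop codon (x axis, nt). All matches shown are sites; the single match of Klf2 lies under short peaks of 3 libraries, whereas most of the Cpeb2 3′UTR is under peaks of replicates 2 and 3.

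Among integrins, receptors for the extracellular matrix, 4 of 26 subunit genes had a match and 3 held a site. All 4 had a stretch, and 37.9% of all such genes held a site. The Itga5 8mer lay 949 nt into a 3′UTR of 986 nt, under peaks of 113 and 109 nt in replicates 2 and 3. Both matches of Itgav were covered in replicates 2 and 3 and neither in replicate 1. The Itga8 site rested on peaks of 3348 and 2784 nt, and the match of Itgb3 was under no peak.

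In BMP and TGF-beta signalling 5 of 6 genes with a match held a site, against 37.9% of all genes with a match and a stretch, which all 6 had. Bmpr2, a type II BMP receptor, had its 8mer 497 nt into a 3′UTR of 8532 nt, covered in replicates 2 and 3. The inhibitory SMADs Smad6 and Smad7 each held a 7mer, the former covered in replicates 2 and 3 and the latter in 1 and 3. Tgif1 and Zeb2, transcriptional repressors that act in the pathway, held an 8mer and a 7mer. The match of Ski, a further repressor, was covered in replicate 3 alone.

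In PI3K signalling 3 of 8 genes with a match held a site, and all 8 had a stretch, so the share was near the 37.9% over all such genes. Pik3cb, a catalytic subunit, had an 8mer under peaks of 99, 96 and 98 nt in replicates 1, 2 and 3, in a 3′UTR of which 11.8% was covered. Pik3ca, another catalytic subunit, had an 8mer covered in replicates 2 and 3. The phosphatase gene Phlpp2 held an 8mer and a 7mer, both covered in these libraries.

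The matches of apoptosis and cell cycle genes were covered unevenly. Bcl2l11, the pro-apoptotic protein Bim, had a 7mer and an 8mer, both covered in replicate 1 and not in 2 or 3. Of the BCL2 family 2 of 4 genes with a match held a site, Mcl1 and Bak1, and 3 of the 4 had a stretch. The 8mer of Bad was under no peak. Over all genes with a match and a stretch 37.9% held a site, and 3 genes are too few to set against that share. In the G1/S list 2 of 5 genes with a match held a site, 4 of which had a stretch, against 37.9% over all such genes. Ccne2, a cyclin, held a 7mer, and Fbxw7, a ubiquitin ligase subunit that targets cyclin E, held a 7mer and an 8mer, all covered in replicates 2 and 3. Cdkn1c, an inhibitor of cyclin-dependent kinases, had its match under no peak.

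Among Krueppel-like factors 2 of 4 genes with a match held a site, Klf2 and Klf6, against 20.7% of all genes with a match. Klf4 and Klf5 had matches under no peak, but their 3′UTRs had no stretch covered in at least 2 libraries, so no site was possible there. The Klf2 8mer at 216 nt was under peaks of all 3 libraries, 176 nt wide in replicate 1 and 91 nt in replicate 2. Of Rab GTPases 3 of 7 genes with a match held a site (Rab3c, Rab9b and Rab14), all 7 with a stretch, which is near the 37.9% over all such genes. Of miRNA machinery genes 1 of 3 held one (Dcp1a), and of synaptic vesicle genes 1 of 4 (Syn2, with 2 8mers). In both lists 3 genes had a stretch, too few to set against that share. Of neuronal and neuroblastoma markers 2 of 4 genes with a match held a site, Map1b and Hand2, and here too 3 genes had a stretch. The 3′UTRs of Map1b and Hand2 were covered in at least 2 libraries over 89.5% and 89.9% of their length. The match of Gap43 was under a peak of replicate 3 alone, and that of Nefl was under no peak. Of axon guidance genes 0 of 4 with a match held a site (2 of them had a stretch, and 20.7% of all genes with a match held a site), although 1 of them, Efna5, was covered in replicate 2. Of marker genes of other cell types 2 had a match, Col1a1 and Col1a2, and neither held a site, although the Col1a2 8mer was under a peak of replicate 1.

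Sites were also found as 8mers in stretches covered in all 3 libraries, 36 of the 498 8mers, in 36 genes. The covered share of each 8mer's own 3′UTR gave 14.1, and 1.97% of all windows of 3′UTRs with a match lay in such stretches. The stretch common to the libraries was shortest in Clcn4, a chloride and proton exchanger (14 nt), followed by Mmd (41 nt), the SUMO-targeted ubiquitin ligase gene Rnf4 (51 nt), Pik3cb (54 nt), Ptger4, a prostaglandin E2 receptor (62 nt), and Ugp2, which makes UDP-glucose (63 nt). Further genes were Grhl1, Tet2, Itprid2, Mef2d, Cpeb2, Dkk3, Dyrk2, Golga4, Gramd3, Cic, Klf2, Osbpl8 and Myo5a. Of these, Tet2 oxidises methylcytosine, Mef2d and Cic are transcription factors, and Dkk3 is a secreted protein of the Dickkopf family whose match lay 32 nt after the first base of the stop codon. In Grhl1 the peak of replicate 1 was 1850 nt wide, and in the others named here a peak of under 300 nt covered the 8mer in each library, except Cpeb2 with 315 nt in replicate 2.

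More than 1 site was present in 16 genes. Man2a1, a Golgi mannosidase of N-glycan processing, had 3, at 53, 498 and 666 nt, each covered in all 3 libraries and all in 1 stretch of 865 nt. Genes with 2 included Ankib1, Btg2, Cpeb2, Fbxw7, Fndc3b, Fnip1, Gnaq, Itgav and Morc3. Only 1 of the 17 neighbouring pairs of sites, that of Wrnip1 at 38 nt, was spaced 8 to 40 nt apart. In Ankib1 the pair was 56 nt apart, and the replicate 1 peak over both was 3127 nt wide. Tmem245, which carries Mir32 within its bounds (chr4:56895229-56895298, minus strand), had 2 sites in a 3′UTR of 13327 nt, at 3111 and 12507 nt. The latter lies beyond the end of the gene in RefSeq and inside its longer GENCODE 3′UTR.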

How the data were processed

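The members and gene lists were chosen with earlier results of these data known. The authors deposited 1 table of the peaks called in each library, with start, stop, strand and a score of no stated unit, which was not used. FastQC, cutadapt, STAR and mm10 are named in the submitters' processing notes. The peak caller, its threshold and any padding are not given in the sources used here. Starts were read as counted from 0. The table had 0 further columns of values per sample.

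For each gene the longest 3′UTR of GENCODE mouse release M21 was used, with spliced exons and the stop codon included, and sequence of GRCm38.p6. A window was covered in a library when all its bases lay under peaks of the same strand. The libraries were compared by exact sign-flip permutation tests, and the coverage, site and recurrence measures and the sign-flip test were tested on simulated data. Wilson intervals were at the 95% level. The scripts ran under Python 3.11.15 with scipy 1.17.1, numpy 2.4.6 and pandas 2.3.3.

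Genes were named if they were reported targets or genes of other lists with a site, at most 20 genes with an 8mer in a stretch covered in all 3 libraries (shortest first), at most 10 with 2 or more sites, or among the 5 shortest stretches. Wrnip1 and genes named without a site were chosen after their values were seen. Alternatives were trimmed peaks, peak width, merged 3′UTR exons, number of libraries, stretch length, site type, strand and each library left out. miR-124-3p was not analysed here, and some genes the rule names are not reported here.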

Additional observations from a re-analysis of the deposited data

How the results depend on the processing

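The 297 stretches became 156 with peaks trimmed by 30 nt on each side, 64 when all 3 libraries were required, 134 with 8mers only and 7 with the opposite strand as a background. Leaving out 1 library gave 78 to 253, with 253 without replicate 1, 78 without replicate 2 and 95 without replicate 3. The log2 coverage ratio stayed above 0 in each alternative, from 0.41 against each 3′UTR's own covered share (added after seeing the data) to 0.85 with trimmed peaks, and 0.48 to 0.54 with 1 library left out. The 8mer minus 7mer difference stayed above 0, from 6.88 to 11.6 percentage points over all alternatives. The difference in A/U content was 4.44 points with all 3 libraries and 2.99 to 5.54 with 1 library left out. The median distance of a site to the nearer end was 358 nt with trimmed peaks, 466 nt with merged 3′UTR exons, 455 nt with all 3 libraries and 416 to 455 nt with 1 library left out. The recurrence difference turned to -6.15 points with peaks of 86 to 200 nt only and to -2.45 within length classes (added after seeing the data), and ranged from -1.68 (without replicate 1) to 5.15 (without replicate 3). Recurrence of the match differed by 20.9 to 39.4 points. With 2 libraries the smallest p is 0.5. The cause of these changes was not tested. No paired analysis was possible because all samples belong to 1 group. The unknown read depth limits what absence of a peak can show.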
